A study of Mus musculus with 6 samples.

Results

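The 9 genes described here encode C/EBP and HNF transcription factors of hepatocytes: Cebpa, Cebpb, Cebpd and Cebpg of the C/EBP family, and Hnf4a, Foxa1, Foxa2, Foxa3 and Onecut1 of the HNF group. They were chosen by gene symbol, and each was reported by 1 probe set, a group of short probes for a transcript, out of 12422 probe sets other than controls. They are 9 of the 8251 genes that the array's annotation names by 1 symbol. Liver RNA came from male wild-type C57BL/6J mice aged 8 to 10 weeks, 1 mouse per array. In the BDL group (bile duct ligation, mice 1, 12 and 3) the common bile duct had been tied and cut 1 day before, which blocks the outflow of bile. The sham group (mice 1, 2 and 3) had the abdomen opened 1 day before and the duct left whole. All mice in both groups thus had surgery under anaesthesia, and no unoperated mice were measured.

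C/EBP proteins bind DNA as dimers through a basic region and a leucine zipper. In liver, C/EBP alpha drives genes of metabolism and plasma proteins in quiescent hepatocytes and restrains their division, whereas C/EBP beta and C/EBP delta are induced by cytokines and act on acute phase genes. HNF4 alpha is a nuclear receptor that maintains hepatocyte identity, the FOXA proteins open chromatin at liver enhancers, and ONECUT1 (HNF6) acts with them in hepatocytes and bile duct cells.

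The upstream sequences of Cebpa and of the FOXA genes are shown because Cebpa was the factor whose groups did not overlap, and because Foxa2 and Foxa3 followed each other across the arrays more closely than either followed Foxa1. Each is the 250 bases before the annotated start, from RefSeq on GRCm38.p6, in lower case with the searched motifs that were found in capitals. The Cebpa window is chr7:35119043-35119292, plus strand, the Foxa1 window chr12:57546112-57546361, minus strand, the Foxa2 window chr2:148046970-148047219, minus strand, and the Foxa3 window chr7:19023540-19023789, minus strand.
Cebpa: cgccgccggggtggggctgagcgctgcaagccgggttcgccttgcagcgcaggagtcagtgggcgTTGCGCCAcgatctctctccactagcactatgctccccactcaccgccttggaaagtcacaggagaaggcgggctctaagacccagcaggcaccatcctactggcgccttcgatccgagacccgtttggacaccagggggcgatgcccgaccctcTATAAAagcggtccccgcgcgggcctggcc
Foxa1: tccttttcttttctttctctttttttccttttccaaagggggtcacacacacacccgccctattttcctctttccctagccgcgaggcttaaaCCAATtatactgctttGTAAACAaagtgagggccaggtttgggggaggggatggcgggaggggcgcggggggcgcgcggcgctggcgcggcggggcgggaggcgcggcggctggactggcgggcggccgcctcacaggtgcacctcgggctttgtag
Foxa2: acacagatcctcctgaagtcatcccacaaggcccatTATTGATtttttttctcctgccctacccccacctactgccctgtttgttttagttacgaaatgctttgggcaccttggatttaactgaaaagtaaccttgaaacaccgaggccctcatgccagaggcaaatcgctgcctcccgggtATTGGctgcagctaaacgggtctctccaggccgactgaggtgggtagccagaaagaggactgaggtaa
Foxa3: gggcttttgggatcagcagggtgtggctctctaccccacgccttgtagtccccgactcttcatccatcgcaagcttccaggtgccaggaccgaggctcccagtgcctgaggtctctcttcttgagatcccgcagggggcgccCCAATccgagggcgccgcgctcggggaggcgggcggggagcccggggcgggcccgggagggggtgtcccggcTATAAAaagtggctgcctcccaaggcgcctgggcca

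The motifs were looked for on both strands of these windows, and their letters were chosen after the sequences were seen. In Cebpa the capitals mark a relaxed C/EBP site (TTGCGNNA), which starts 185 bases before the start and is present in 2.98% of 27025 promoter windows of the same length, and a TATA box (TATAAA), which starts 30 bases before it and is present in 13% of windows. Foxa1 held a FOXA site (TGTTTAC, read on the other strand) 141 bases before the start, a motif present in 3.06% of windows, and a CCAAT box (CCAAT), present in 34.5%. Foxa2 held an ONECUT1 site (ATCAATA, read on the other strand) 214 bases before the start, a motif present in 1.88% of windows, and a CCAAT box. Foxa3 held a CCAAT box and a TATA box, so of the motifs searched Foxa2 and Foxa3 had only the CCAAT box in common. These matches describe letters and do not show binding. GC content was 66.4% in the Cebpa window and 62%, 50.8% and 68.8% in those of Foxa1, Foxa2 and Foxa3, against a median of 52% over all windows. Foxa2 has 3 windows in the RefSeq table, and the one shown lies at the gene's 5' end. The table held a window for 8 of the 9 genes, all except Cebpd.

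The deposited values are array signals on a linear scale, already scaled so that the 2% trimmed mean was 1501 on each array. Median signals were between 431 and 627, and 12.5% of probe sets on sham mouse 1 were at or under the floor used here, a signal of 152.7, against 24.5% to 31.3% on the other arrays, so that array stood apart at low signals. None of the 9 factors was at the floor on any array, so their differences do not depend on it. Of 8 hepatocyte markers on the array, 0 were at the floor on all arrays, and Alb (albumin) had signals of 147870 to 199675 in BDL mice and 125084 to 170913 in sham mice. In whole liver RNA, fewer cells of a type and less RNA per cell cannot be told apart.

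The comparison asked how these factors differed 1 day after BDL from 1 day after sham surgery. Signals of Cebpa were lower in all 3 BDL mice than in any sham mouse, and the other 8 factors had overlapping groups. With limma over 9542 probe sets, 0 of the 9 passed an adjusted p of 0.05, as did 0% of all probe sets tested. The lowest limma adjusted p among the 9 was 0.832, for Cebpa. Groups were apart for 1 of 9 factors, against 10.6% of all probe sets tested, and 1 of 9 had an unadjusted limma p under 0.05, against 5.78%. By direction, 1 factor was apart lower, against 4.32% of probe sets, and 0 apart higher, against 6.32%. At an unadjusted p under 0.05, 1 was lower, against 2.39%, and 0 higher, against 3.4%. Each of these counts rests at most on 1 factor, Cebpa, so the counts alone say nothing particular about the 9 factors. Of the differences, 6 of 9 were positive, against 48.8% of probe sets, and 3 were negative, with a median of 0.20 on the log2 scale, against -0.01 over all probe sets tested. That median was -0.12 without sham mouse 2, -0.0001 without sham mouse 1 and 0.42 without sham mouse 3, so single arrays set its sign and size.

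**Figure D1:**
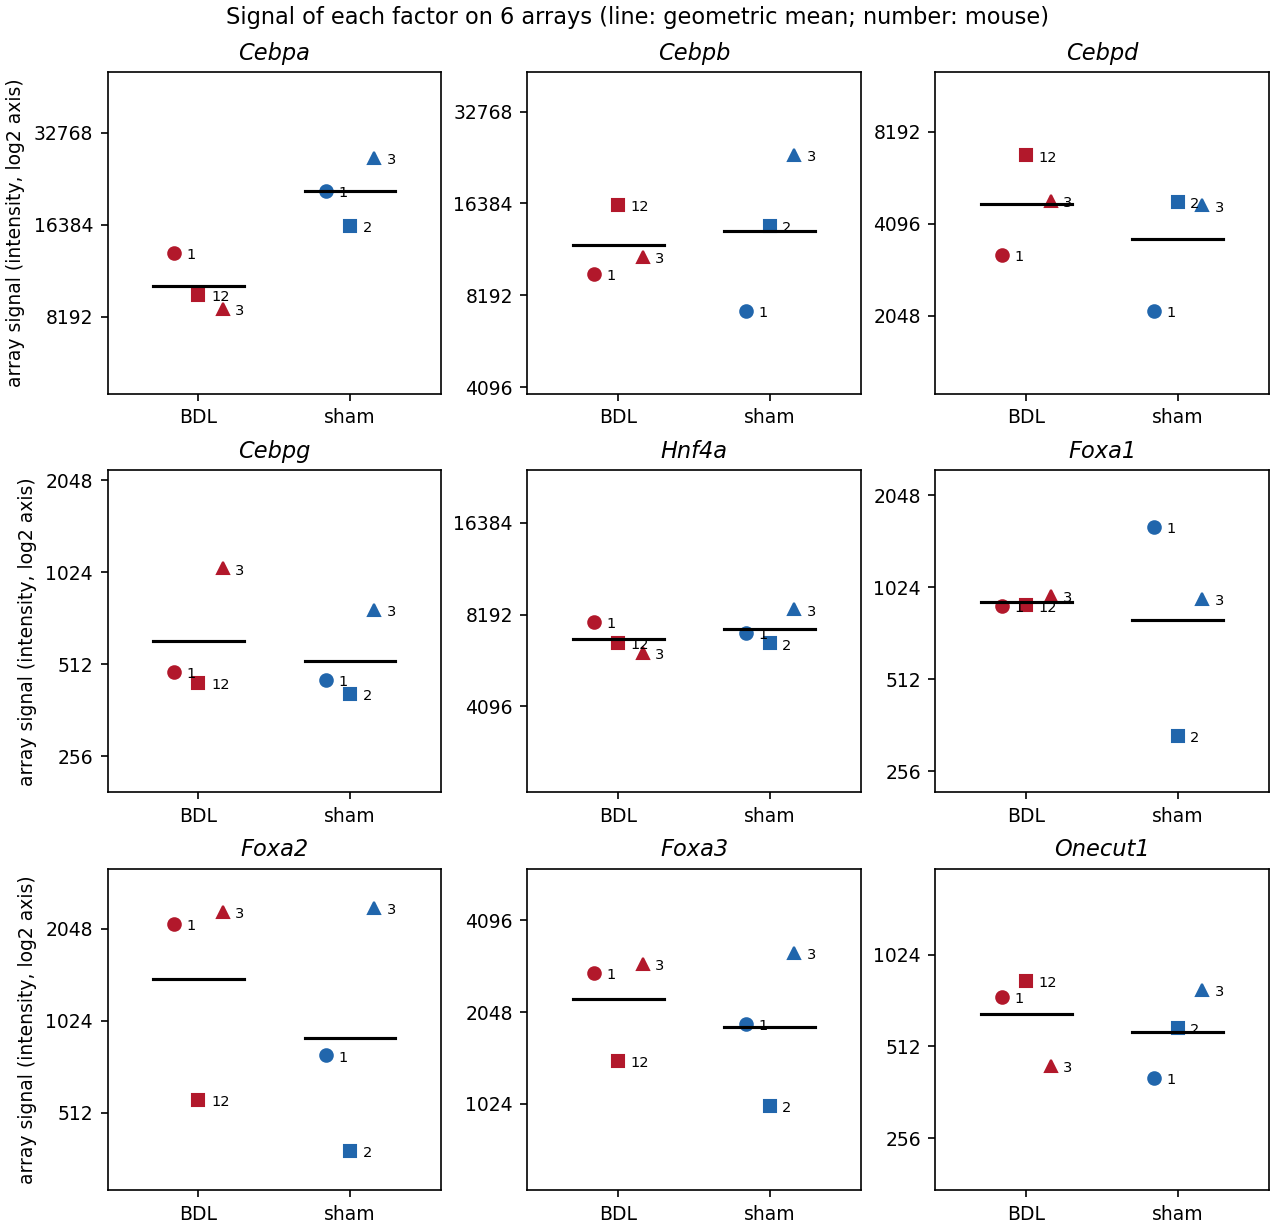
Array signal of each factor in every mouse (intensity on a log2 axis, each panel spanning the same number of doublings), with BDL mice on the left, sham mice on the right and lines at the geometric means. Cebpa is the panel in which the groups are apart, with BDL signals of 8702 to 13216 and sham signals of 16219 to 27176.

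Cebpa, which encodes C/EBP alpha, had signals of 13216, 9638 and 8702 in BDL mice 1, 12 and 3, against 21134, 16219 and 27176 in sham mice 1, 2 and 3. The highest BDL signal was 0.815 of the lowest sham signal. Its signal averaged 10519 ± 2382 in the BDL mice and 21510 ± 5488 in the sham mice (SD, n = 3 each). On the log2 scale the difference was -1.02 (limma SE 0.32), a BDL to sham ratio of 0.492, with a 95% interval of -1.76 to -0.28 that is not adjusted for the number of probe sets. The unadjusted limma p was 0.0122 and the limma adjusted p 0.832, so the difference did not pass over all probe sets. A difference at least as negative was found for 2.18% of the probe sets tested. With each array left out in turn, the difference lay between -1.21 and -0.84, and without sham mouse 1, the array that stood apart, it was -1.02.

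Marker lists of other cell types are given beside this result, and 0 of their genes passed the adjusted threshold. Of 13 macrophage markers on the array, 11 were tested and 9 of these were higher in BDL, and their summed signal was 17215 to 40977 in BDL mice and 7961 to 15147 in sham mice. That separation was carried by Cd14, the lipopolysaccharide co-receptor, with signals of 1873, 29692 and 15816 in BDL mice 1, 12 and 3 and 717, 4568 and 1176 in sham mice 1, 2 and 3. Without Cd14 the groups overlapped, with sums of 15342, 11285 and 17155 in BDL mice 1, 12 and 3 and 11407, 10579 and 6785 in sham mice 1, 2 and 3, while 8 of the 10 tested genes left were higher in BDL. Of the 11, 2 were apart higher, where 6.33% of all tested genes were, and 0 apart lower. These were Ctss, with signals of 2198 to 2332 in BDL mice and 791 to 1554 in sham mice, and Tyrobp. Signals of Tyrobp were 425 to 986 in BDL mice and 143 to 402 in sham mice, with 1 sham array at the floor. The median log2 difference of the 11 was 0.89, and 0.49 without sham mouse 3. None of the 13 was at the floor on all arrays, and the defining marker Clec4f of Kupffer cells had signals of 1742, 751 and 1736 in BDL mice 1, 12 and 3 and 1036, 1132 and 329 in sham mice 1, 2 and 3. Summed hepatocyte markers overlapped, at 534350 to 788410 in BDL mice and 451700 to 719990 in sham mice, and 4 of 8 had a positive difference, or 1 of 8 under quantile normalization. Of 8 tested endothelial markers, 7 were positive, with a median log2 difference of 0.47 and summed signals of 7233 to 9504 in BDL mice and 4238 to 8289 in sham mice, and Fcgr2b, an Fc receptor of sinusoidal endothelium, was apart higher. Of 5 tested lymphocyte markers, 4 were negative, with a median of -0.77, or -0.27 without sham mouse 1, and Ms4a1 (CD20) of B cells was apart lower. Summed over the 8 lymphocyte markers on the array, signals were 2172 to 2862 in BDL mice and 2505 to 7832 in sham mice, and Cd8a was at the floor on all arrays. Of tested cholangiocyte, neutrophil, stellate cell and matrix, and exocrine pancreas markers, 2 of 3, 4 of 10, 5 of 9 and 1 of 6 were positive. Each of these lists had 1 gene apart higher, where 6.33% of all tested genes were, and 1 neutrophil marker was apart lower. Summed pancreas markers were 15384, 7529 and 5314 in sham mice 1, 2 and 3 and 4856 to 8152 in BDL mice. The part of these cell types in the Cebpa difference was not tested.

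Cebpb, the cytokine-inducible C/EBP beta, had signals of 9654, 16247 and 10918 in BDL mice 1, 12 and 3 and 7266, 13816 and 23624 in sham mice 1, 2 and 3. The sham mice thus spanned a wider range than the BDL mice and enclosed all of them. Its log2 difference was -0.16 (SE 0.45, limma adjusted p = 0.958), with a 95% interval of -1.18 to 0.87, and it was 0.26 without sham mouse 3. The interval holds sizeable differences in both directions, so these arrays do not show that Cebpb was alike in the groups.

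Cebpd, which encodes C/EBP delta of the acute phase response, had signals of 3236, 6856 and 4854 in BDL mice 1, 12 and 3 and 2125, 4817 and 4699 in sham mice 1, 2 and 3. BDL mouse 12 was the highest and sham mouse 1 the lowest, and the groups overlapped. The difference was 0.39 (SE 0.43, limma adjusted p = 0.891), and it was -0.0001 without sham mouse 1 and 0.67 without BDL mouse 1.

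Cebpg encodes C/EBP gamma, a family member without a strong activation domain that dimerizes with other C/EBP and ATF proteins. Its signals were 482, 444 and 1054 in BDL mice 1, 12 and 3 and 455, 409 and 770 in sham mice 1, 2 and 3. Mouse 3 of each group was the highest of its group, and the difference was 0.22 (SE 0.42, limma adjusted p = 0.941), turning to -0.18 without BDL mouse 3.

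C/EBP beta against C/EBP alpha is a usual description of the injured or growing liver, so the log2 signal of Cebpb minus that of Cebpa was taken on each array. The levels of different probe sets cannot be compared, and this value is read only between groups. It was -0.45, 0.75 and 0.33 in BDL mice 1, 12 and 3 and -1.54, -0.23 and -0.20 in sham mice 1, 2 and 3, so BDL mouse 1 lay within the sham mice. The means were 0.21 ± 0.61 in BDL and -0.66 ± 0.76 in sham (SD, n = 3 each), 0.87 apart. The distance was 0.43 without sham mouse 1 and 1.20 without BDL mouse 1. Its 2 parts were the Cebpa difference of -1.02 and the Cebpb difference of -0.16. The distance thus came from Cebpa, while Cebpb was not higher in BDL on average and made the distance smaller.

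**Figure D2:**
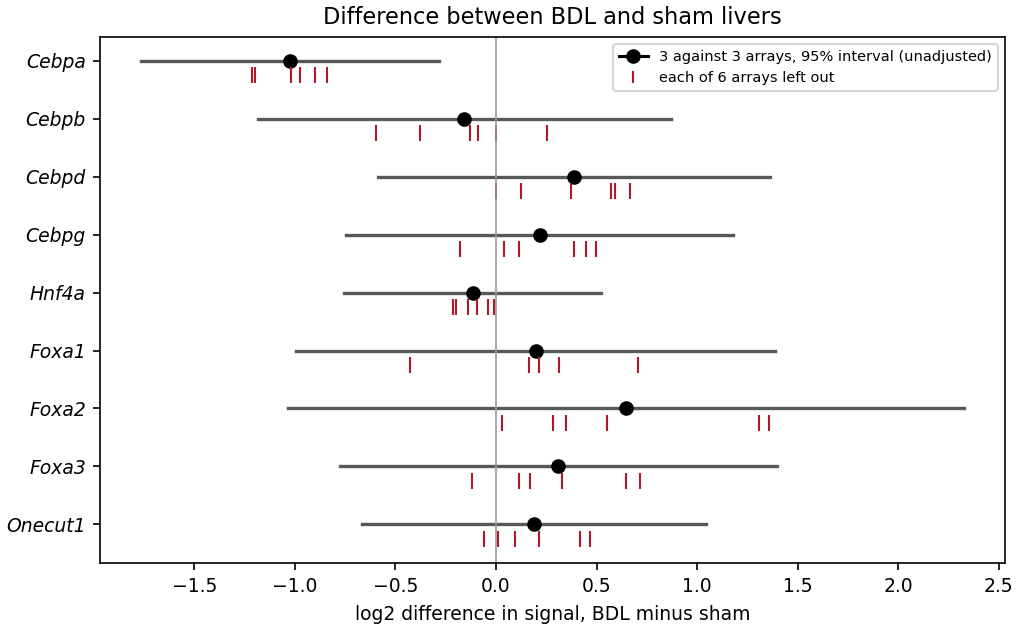
Log2 difference of each factor, BDL minus sham, with its 95% interval (black, unadjusted) and the 6 values with 1 array left out each (red ticks). The interval of Cebpa, -1.76 to -0.28, is the one that does not include 0, and 6 of the other factors have leave-one-out values on both sides of 0.

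Hnf4a, the nuclear receptor of hepatocyte identity, was the steadiest of the 9. Its signals were 7758, 6606 and 6125 in BDL mice 1, 12 and 3 and 7118, 6587 and 8528 in sham mice 1, 2 and 3, a 1.39-fold range over all 6 arrays. Its spread within groups was 0.18 on the log2 scale, at the 6.1th percentile of all probe sets tested, whose median was 0.44. The difference was -0.12 (SE 0.28, limma adjusted p = 0.954) with a 95% interval of -0.76 to 0.52, which leaves out a difference as large as that of Cebpa.

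Foxa1 (HNF3 alpha), a pioneer factor, had signals of 892, 894 and 958 in BDL mice 1, 12 and 3 and 1616, 334 and 938 in sham mice 1, 2 and 3. The BDL mice were nearly alike, whereas the sham mice spanned a 4.84-fold range around them. The difference was 0.20 (SE 0.52, limma adjusted p = 0.957), and it was -0.43 without sham mouse 2 and 0.71 without sham mouse 1.

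Foxa2 (HNF3 beta), which takes part in fasting metabolism and bile acid handling in the liver, varied the most. Its signals were 2124, 562 and 2328 in BDL mice 1, 12 and 3 and 788, 383 and 2402 in sham mice 1, 2 and 3, a 6.28-fold range. Its spread within groups was 1.24 on the log2 scale, at the 98.8th percentile of all probe sets tested. Both groups held high and low mice, and the difference was 0.65 (SE 0.74, limma adjusted p = 0.893), with a 95% interval of -1.03 to 2.33. It was 0.03 without sham mouse 2 and 1.36 without sham mouse 3.

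Foxa3 (HNF3 gamma), the FOXA gene most tied to adult liver, had signals of 2751, 1420 and 2950 in BDL mice 1, 12 and 3 and 1878, 1008 and 3202 in sham mice 1, 2 and 3. As for Foxa2, sham mouse 3, BDL mouse 3 and BDL mouse 1 were the 3 highest, in that order, and sham mouse 2 was the lowest. The difference was 0.31 (SE 0.48, limma adjusted p = 0.922), and it was -0.12 without sham mouse 2 and 0.72 without sham mouse 3.

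Onecut1 had signals of 746, 837 and 443 in BDL mice 1, 12 and 3 and 405, 589 and 782 in sham mice 1, 2 and 3. Each group held a mouse near the bottom of the range and a mouse near the top. The difference was 0.19 (SE 0.38, limma adjusted p = 0.942), and it was -0.06 without sham mouse 1.

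The sham range enclosed all 3 BDL signals for 4 of the 9 factors, Cebpb, Foxa1, Foxa2 and Foxa3, against 26.2% of all probe sets tested. Sham mouse 3 gave the highest signal for 5 of the 9 factors, and the lowest was in sham mouse 2 for 4 factors and in sham mouse 1 for 3. The matching shares over all probe sets were not counted, so these counts cannot be read as particular to the 9 factors.

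Likeness between factors was described by the root mean square difference over the 6 arrays between their centred log2 signals, each minus its own 6-array mean. Foxa2 and Foxa3 were 0.48 apart, nearer than all but 0.293% of other probe sets were to Foxa2. Cebpb and Cebpd were 0.38 apart, within the nearest 2.77% of Cebpb, and Onecut1 was 0.39 from Cebpb, within the nearest 2.94%. Cebpa and Hnf4a were 0.47 apart, within the nearest 5.52% of Cebpa, and Cebpa and Cebpb were 0.71 apart. Foxa1 was 0.59 from Foxa3, within the nearest 13.5% of Foxa1, and 0.97 from Foxa2. The smallest distance of the 36 pairs was 0.36, between Hnf4a and Onecut1, and Cebpg and Foxa3 were 0.40 apart, also less than Foxa2 and Foxa3. A distance is small for any pair of steady genes, and Onecut1 was only within the nearest 30.3% of Hnf4a, while Foxa3 was within the nearest 7.05% of Cebpg. The points share arrays, and these distances are descriptions over 6 mice.

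**Figure D3:**
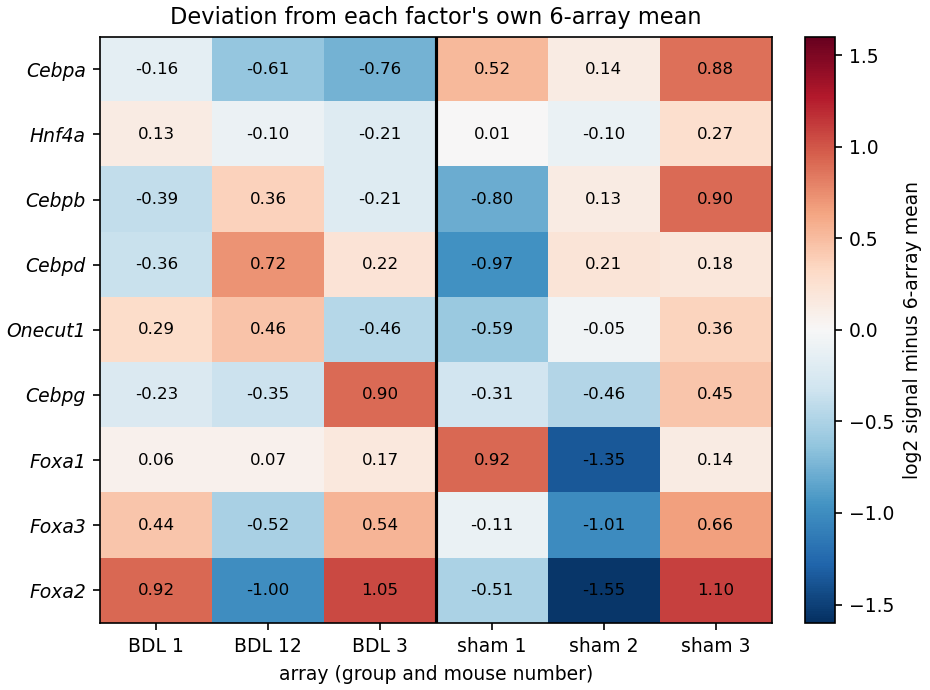
Log2 signal of each factor minus its own mean over the 6 arrays (colour and printed value), with BDL mice left of the black line and sham mice right of it. Foxa2 and Foxa3 are low together in BDL mouse 12 (-1.00 and -0.52) and sham mouse 2 (-1.55 and -1.01), and Cebpa is below its mean in the 3 BDL mice and above it in the 3 sham mice.

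By the same measure, the genes nearest to Cebpa were Fgf1, a fibroblast growth factor, at 0.20, Csk, a kinase that restrains Src kinases, at 0.21, and Gtse1, a cell cycle protein, at 0.22, against a median of 0.72 over all candidates. Fgf1 had signals of 880, 751 and 667 in BDL mice 1, 12 and 3 and 1351, 1588 and 2068 in sham mice 1, 2 and 3 (limma adjusted p = 0.754). In BDL mouse 3, Csk (92.7) and Gtse1 (141.9) were under the floor of 152.7, so their distances from Cebpa depend on the floor. Hnf4a had the bile acid receptor gene Nr1h4 (FXR) among its 3 nearest, at 0.05. The 3 genes nearest to Foxa3 included Pemt, the hepatic phosphatidylethanolamine methyltransferase, at 0.11, with signals of 16075, 7355 and 15641 in BDL mice 1, 12 and 3 and 11303, 6442 and 17517 in sham mice 1, 2 and 3. Cebpd had Ppp3ca, a calcineurin subunit, at 0.07, and Onecut1 had Tm7sf2, a sterol reductase gene, at 0.09. Cebpb was nearest to Eci2, a fatty acid oxidation enzyme, at 0.18.

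Other factors of the same pathways had differences in both directions, and 0 passed the adjusted threshold. Of 9 other bZIP factors listed, 7 were on the array and 6 tested, with 2 positive and 4 negative differences, 0 apart, and a median log2 difference of -0.08 that was 0.28 without BDL mouse 12. Nfil3, a repressor of the clock-linked PAR bZIP genes, had signals of 502, 1099 and 459 in BDL mice 1, 12 and 3 and 1840, 1330 and 909 in sham mice 1, 2 and 3, with a difference of -1.05 (SE 0.43, limma adjusted p = 0.832). Ddit3, the C/EBP-like stress factor CHOP, differed by 0.82 (SE 0.60), with BDL signals from 115 to 792 and sham signals from 97.9 to 354. It was at the floor on 1 BDL and 2 sham arrays, so its difference and SE depend on the floor. Atf3, another stress-induced bZIP factor, differed by 0.48 (SE 0.43). Groups overlapped for Nfil3, Ddit3 and Atf3.

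Of 23 other liver-enriched factors and cofactors listed, 19 were on the array and 16 tested, with 6 positive and 10 negative differences and a median of -0.07 that was 0.08 without BDL mouse 12. Nr2f2 (COUP-TFII), which competes with HNF4 alpha for its sites, was the 1 gene with groups apart. It had signals of 946, 907 and 716 in BDL mice 1, 12 and 3 and 624, 583 and 533 in sham mice 1, 2 and 3, a difference of 0.55 (SE 0.28, limma adjusted p = 0.832). Nr0b2 (SHP), a bile acid induced repressor of HNF4 alpha activity, differed by 0.74 (SE 0.54) with signals of 3829, 1191 and 4494 in BDL mice 1, 12 and 3 and 2374, 1030 and 1806 in sham mice 1, 2 and 3. In both groups the numbered mice 12 and 2 were low, and the groups overlapped. Nr1i2 (PXR), a xenobiotic and bile acid sensor, differed by 0.55 (SE 0.34), also with overlapping groups.

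Textbook target genes of the factors were set beside them. The lists overlap: 33 distinct target genes of C/EBP alpha, HNF4 alpha, FOXA and ONECUT1 were on the array, 13 of them in more than 1 list. Of 17 tested hepatocyte C/EBP targets, 9 were positive and 8 negative, 0 were apart higher and 2 apart lower, and the median log2 difference was 0.05, against -0.01 over 6892 genes, of which 10.6% were apart, 6.33% higher and 4.27% lower. That median was -0.22 without sham mouse 1 and 0.31 without sham mouse 3. Under quantile normalization it was -0.07, with 5 of 17 positive, 1 apart higher and 1 apart lower. Ttr, the plasma carrier transthyretin, had signals of 3576, 4520 and 4824 in BDL mice 1, 12 and 3 and 11138, 6456 and 14576 in sham mice 1, 2 and 3, with a difference of -1.25 (SE 0.36, limma adjusted p = 0.830). G6pc, the glucose-6-phosphatase of glucose release, had signals of 16656, 18910 and 4173 in BDL mice 1, 12 and 3 and 23181, 23157 and 19646 in sham mice 1, 2 and 3, with a difference of -1.00 (SE 0.54, limma adjusted p = 0.832) that rested largely on BDL mouse 3. F9, coagulation factor IX, differed by -0.31 (SE 0.32) and Serpina1c, an alpha-1-antitrypsin gene, by 0.29 (SE 0.30), both with overlapping groups.

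Of 19 tested HNF4 alpha targets, 7 were positive and 12 negative, 1 apart higher, against 6.33% of all tested genes, and 3 apart lower, against 4.27%, with a median of -0.06. Under quantile normalization 0 were apart higher and 2 apart lower. The median was -0.23 without sham mouse 1, 0.06 without sham mouse 3, and -0.22 with all probe sets of a gene averaged. Ttr and G6pc are also in this list. Cyp8b1, the sterol 12-alpha-hydroxylase, had signals of 9787, 5407 and 1038 in BDL mice 1, 12 and 3 and 13708, 17221 and 18816 in sham mice 1, 2 and 3. Apoc2, the lipoprotein lipase cofactor, had signals of 40626, 42469 and 58067 in BDL mice 1, 12 and 3 and 17074, 37122 and 28805 in sham mice 1, 2 and 3, a difference of 0.82 (SE 0.36, limma adjusted p = 0.832). Genes under the same factor thus lay on both sides of 0. The 11 tested FOXA targets had a median of -0.10 with 5 positive and 6 negative differences, and the 8 tested ONECUT1 targets, Foxa2 among them, had a median of -0.03 with 4 on each side. In both lists the 2 genes apart were Ttr and G6pc, both lower, and under quantile normalization 1 gene of each list was apart and 2 were positive. The FOXA median was -0.33 without sham mouse 1 and 0.03 without sham mouse 3, and the ONECUT1 median was -0.30 without BDL mouse 1 and -0.33 with all probe sets of a gene averaged.

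Acute phase genes bound by C/EBP beta and C/EBP delta had mostly positive differences on the deposited scale, small beside their spread. Of 19 tested, 18 were positive, where 49.2% of all tested genes were, with a median log2 difference of 0.23, and 0 were apart or had an unadjusted p under 0.05. Under quantile normalization 12 of 19 were positive, where 50.3% of all tested genes were, and the median was 0.06. Lcn2, the iron-siderophore binder lipocalin 2, had signals of 55676, 88293 and 101006 in BDL mice 1, 12 and 3 and 37344, 55050 and 65153 in sham mice 1, 2 and 3, with a difference of 0.63 (SE 0.36, limma adjusted p = 0.832). Orm1, an orosomucoid, differed by 0.41 (SE 0.30) and Cp, the copper carrier ceruloplasmin, by 0.61 (SE 0.47). Some bright genes outside this list had differences of like size, Alb of 0.21, Apoa1 of 0.27 and Serpina1c of 0.29, while Cps1 differed by -0.13. Whether the positive differences are particular to the acute phase list was not tested. Sham mouse 1, the lowest array for Cebpb and Cebpd, was also the lowest for this list, at -0.63 from the list's 6-array mean. It was the lowest for the hepatocyte C/EBP targets too, at -0.37. The list's median was 0.05 without sham mouse 1 and 0.46 without BDL mouse 1.

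The list of the pathway that induces Cebpb and Cebpd held IL-6, IL-1 and TNF with their receptors and kinases. It also held Stat3, Socs3, Nfkb1, Nfkbia and Nr3c1, and 14 of its 15 genes were on the array and 10 tested. Of these, 9 were positive, against 49.2% of all tested genes, and 1 negative, 2 were apart higher, against 6.33%, and 0 apart lower, against 4.27%, and the median was 0.45. Il6st, the shared IL-6 receptor chain gp130, had signals of 2521, 2215 and 3269 in BDL mice 1, 12 and 3 and 1770, 1910 and 1487 in sham mice 1, 2 and 3, with a difference of 0.62 (SE 0.29, limma adjusted p = 0.832). Jak1, its kinase, differed by 0.75 (SE 0.36) with BDL signals of 2637 to 3288 above sham signals of 1081 to 2320. Socs3, the feedback inhibitor induced by STAT3, differed by 0.72 (SE 0.57), with overlapping groups. The 1 negative gene was Stat3, named after its values were seen, with a difference of -0.35 (SE 0.33). Its signals were 3732, 5816 and 3361 in BDL mice 1, 12 and 3 and 6788, 4694 and 4743 in sham mice 1, 2 and 3. The median of the list was 0.16 without sham mouse 1. Of the cytokines themselves, Il6 was under the floor on all 6 arrays, and Il1b and Tnf were above it on 2 arrays each and were not tested. Macrophages, whose summed markers are given above, also express these receptors, and their part in these differences was not tested.

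**Figure D4:**
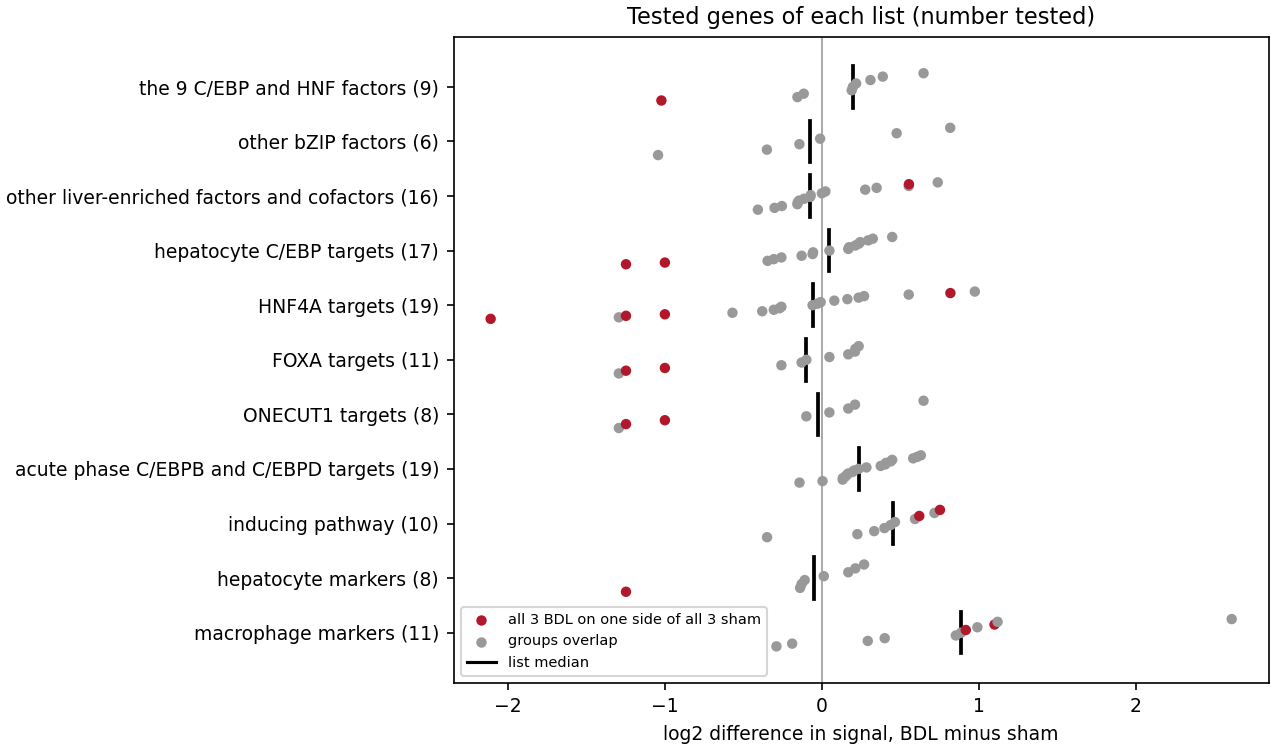
Log2 difference, BDL minus sham, of each tested gene (points) in the 9 factors, related factors, target lists and 2 marker lists, with each list's median (black bar). Red points have all 3 BDL mice on one side of all 3 sham mice, as for Cebpa at -1.02 and Ttr at -1.25, and 18 of 19 acute phase genes lie above 0 with their groups overlapping (12 of 19 under quantile normalization, not drawn).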

How the data were processed

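Liver RNA of 6 mice, 3 BDL and 3 sham, was hybridized to Affymetrix U74Av2 arrays, as the labels state. Groups and mouse numbers come from the sample titles. The authors deposited 1 intensity per probe set and array, made with MicroArray Suite 4.0 and GeneChip expression software 3.1 per the design text; how background and scaling were set is not given in the sources used here.

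Signals were kept as scaled. Values under 152.7, the 25th percentile, were raised to it before taking log2. Of 12488 probe sets, 66 controls were left out, and 9542 above the floor on at least 3 of 6 arrays were tested with limma 3.58.1 in R 4.3.3 (lmFit, eBayes, 4 residual and 4.67 prior degrees of freedom), BDL minus sham, with Benjamini-Hochberg adjustment. The number of arrays limits the precision. SE is limma's moderated standard error. Gene names came from the platform annotation, brought up to date with RefSeq gene identifiers; 1193 had no symbol and 396 several, and these were not named. Where a gene had several probe sets, the brightest on average stood for it.

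The members and lists were chosen with earlier results of these data known. Named are all members, up to 4 genes per list with the smallest p, and the 3 nearest genes of each member, of which some are given; Clec4f was named after its values were seen. The limma fit was also run on simulated data with independent normal noise and shifts in bright probe sets only. That run cannot check the floor or effects shared by an array, and no result here rests on it.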

Additional observations from a re-analysis of the deposited data

How the results depend on the processing

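No alternative brought any of the 9 factors past the adjusted threshold: quantile normalization, floors at the 10th and 40th percentile, an added constant of 64, 2 other filters, a variance trend, robust variances, array weights, each array left out, and the replicate number as a block. Over all probe sets, 0 passed in each of these (each array left out included) except without a filter on low values, where 3 did (Anxa3, Myc and Ate1, named after their values were seen; each had all 3 sham signals under the floor, which sets their sham spread to 0). The Cebpa difference stayed between -1.21 and -0.84 in all 14 fits that gave it, with unadjusted limma p from 0.00374 to 0.0534; that of 0.0534 was without BDL mouse 3. Array weights ran from 0.405 for sham mouse 1 to 2.1 for BDL mouse 3. With them Foxa2 was 1.48, Foxa3 0.84, Foxa1 0.82, Cebpg 0.55, Cebpd 0.08, Cebpb -0.33, Hnf4a -0.07 and Onecut1 -0.0065. With the replicate block Foxa1 was -0.41 and Cebpa -1.16. The numbers 12 and 2 do not recur between groups, so BDL mouse 12 and sham mouse 2 add nothing to the block's differences. Those differences rest on mice 1 and 3 of each group. Leaving out 1 array moved Cebpb between -0.59 and 0.26, Cebpd between -0.0001 and 0.67, Cebpg between -0.18 and 0.50, Foxa1 between -0.43 and 0.71, Foxa3 between -0.12 and 0.72 and Onecut1 between -0.0593 and 0.47; the cause was not tested. Cebpb minus Cebpa stayed between 0.43 and 1.20. Probe sets at an unadjusted p under 0.05 numbered 552, against 308 without BDL mouse 3, 1176 without sham mouse 3, 362 with the filter at the 50th percentile and 1023 with array weights. The labels give mice 1 and 3 of both groups the same numbers without saying that they pair. Deviations from the group means correlated at 0.209 and 0.246 over probe sets for these 2 pairs, and at 0.289 for BDL mouse 12 with sham mouse 2. All other pairings of a BDL with a sham mouse were negative, from -0.211 to -0.0398. A block that joins BDL mouse 12 with sham mouse 2 was not fitted, and what these correlations reflect was not tested. With the replicate block 651 probe sets had an unadjusted limma p under 0.05 and 0 passed the adjusted threshold. Without BDL mouse 1, Cebpd was also apart, as were 19.9% of all probe sets; this check, the macrophage sum without Cd14 and the counts of lists under quantile normalization were chosen after seeing the data. No detection calls were used here, which limits what can be said of low signals.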

Other observations

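Dbp, the clock-controlled PAR bZIP factor, was listed beside Nfil3 but was not tested, since it was above the floor on 2 of 6 arrays: its signals were 364, 26.7 and 55.3 in BDL mice 1, 12 and 3 and 117, 34.9 and 340 in sham mice 1, 2 and 3. Slc2a2, the hepatocyte glucose transporter and a FOXA and ONECUT1 target, was named after its values were seen: its signals were 14738, 1705 and 13109 in BDL mice 1, 12 and 3 and 7853, 6483 and 7964 in sham mice 1, 2 and 3, with the lowest value in BDL mouse 12, where Foxa2 and Foxa3 were also lower than in the other BDL mice. Atf5, a hepatocyte-rich bZIP factor, was likewise named after its values were seen, with signals of 9613, 1563 and 14344 in BDL mice 1, 12 and 3 and 6322, 4256 and 16618 in sham mice 1, 2 and 3. The 3 highest arrays for Atf5 were those highest for Foxa2 and Foxa3. How many other probe sets had the same 3 highest arrays was not counted, and a link of Atf5 or Slc2a2 to the FOXA genes was not tested.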
